A study of Rattus norvegicus with 11 samples.

Results

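Connexin genes were examined here in bladder tissues of rats with partial bladder outlet obstruction (PBOO) and of normal rats. The members are the rows of the deposited expression table with the symbols Gja1, Gjc1, Gja4, Gja5, Gjb2, Gjb5 and Gjb6, which are 7 of the 17 connexin genes and of the 18507 genes listed. They were grouped by the tissue in which each protein is best known: Gja1 and Gjc1 as muscle, Gja4 and Gja5 as vascular, and Gjb2, Gjb5 and Gjb6 as epithelial connexins. All animals were Sprague-Dawley rats, which the methods give as adult females of several months. For obstruction, a suture was tied around the outlet of the bladder over a thin tube that was then withdrawn, while the controls, called normal in the labels and sham in the methods, received only an abdominal incision. At week 4 there were 3 PBOO and 3 normal samples, and at week 5 there were 2 PBOO samples, after 1 library was left out by the authors in quality control, and 3 normal samples. In the table, no column name holds a time point, and the normal samples of week 5 carry the name adult. The column names of all week 4 samples, and of no week 5 sample, end in Input, which the labels do not explain. The labels do not say whether each sample came from 1 rat, and p-values measure the spread between these samples.

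Connexins are membrane proteins that assemble in rings of subunits, the hemichannels, and hemichannels of neighbouring cells dock to form gap junctions through which ions and small metabolites pass. In the bladder, connexin 43 (Gja1) and connexin 45 (Gjc1) couple smooth muscle and interstitial cells and are known for their part in the spread of electrical activity through the wall. Connexin 37 (Gja4) and connexin 40 (Gja5) are the typical connexins of arterial endothelium, and connexin 26 (Gjb2), connexin 30 (Gjb6) and connexin 31.1 (Gjb5) are found in epithelia, above all in stratified ones. Gja1 is expressed in many other cell types too, so its assignment to muscle is a simplification.

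The upstream sequences of 3 members, the one of each tissue group with the highest log2 fold change in either week, called or not, are shown so that their base composition and short motifs can be compared. The RefSeq table of promoters (GRCr8) held 5 of the 7 members, Gja1, Gja4, Gja5, Gjb2 and Gjb6, the last with 2 windows. Each sequence below is the 250 bases before the gene's start, 5′ to 3′ on the gene's strand, with a match to the AP-1 motif TGANTCA or to the GC box GGGCGG, on either strand, in capitals.
Gja1, chr20:36302314-36302563, + strand: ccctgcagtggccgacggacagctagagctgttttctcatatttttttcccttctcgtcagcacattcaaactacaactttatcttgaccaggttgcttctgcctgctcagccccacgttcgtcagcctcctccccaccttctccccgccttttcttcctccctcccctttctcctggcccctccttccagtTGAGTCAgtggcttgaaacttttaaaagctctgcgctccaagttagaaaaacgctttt
Gja4, chr5:144920325-144920574, - strand: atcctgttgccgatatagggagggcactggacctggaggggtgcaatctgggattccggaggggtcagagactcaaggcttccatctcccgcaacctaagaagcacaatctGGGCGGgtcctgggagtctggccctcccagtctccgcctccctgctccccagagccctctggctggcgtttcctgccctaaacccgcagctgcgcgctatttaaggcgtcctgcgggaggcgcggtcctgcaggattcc
Gjb2, chr15:35381954-35382203, - strand: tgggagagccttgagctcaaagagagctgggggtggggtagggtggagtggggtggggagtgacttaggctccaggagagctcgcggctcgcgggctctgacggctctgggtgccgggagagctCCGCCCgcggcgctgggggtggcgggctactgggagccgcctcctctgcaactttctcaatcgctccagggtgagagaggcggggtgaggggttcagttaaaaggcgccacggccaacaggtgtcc
The Gja1 window held 51.2% G and C, the same as the median of the 33469 windows of the table, while Gja4 had 63.2% and Gjb2 had 67.2%. Gja1 was the only one of the 5 members with an AP-1 match, a motif found in 6.3% of all windows. A GC box was present in the windows of Gja4, Gja5, Gjb2 and Gjb6, but not in that of Gja1, and in 30.5% of all windows. These matches are descriptions of letters, not of bound sites.

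Expression was measured as FPKM, the number of fragments scaled by gene length and by the mapped total of the library, as computed by the authors. FPKM values sum to between 424961 and 564343 per sample, and the sequencing depth behind them is unknown. The 6 week 4 samples have 5578 to 5798 genes listed at 0, against 1715 to 2329 in the 5 week 5 samples, so levels of the 2 weeks are set side by side here without a test. The test within a week was limma on log2(FPKM + 0.1), over all genes whose mean reached 0.5 FPKM. A gene was called when the Benjamini-Hochberg adjusted p was under 0.05 and the change at least 2-fold, and only such genes are said to have increased or decreased. All 7 members passed the filter on low values in both weeks. Normal week 4 replicate 1 stood apart from its group in leukocyte markers (summed FPKM of 74.2, against 437 and 492) and in fibroblast markers (1196, against 4369 and 4445), and the values of Gja1, Gjb2 and Gjb6 at week 4 are given with and without it.

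The 7 genes covered a wide range of levels in normal bladder. Gjb6 was the highest in every sample of both weeks, with a mean of 57.5 ± 13.2 FPKM (SD, n = 3) in normal week 4 and 53.2 ± 15.1 FPKM (SD, n = 3) in normal week 5 samples. In normal week 4 tissue it was followed by Gjc1, Gja1, Gja4, Gjb2, Gja5 and Gjb5. The ranges of Gja1 and Gja4, of Gja4 and Gjb2, of Gjb2 and Gja5, and of Gjb2 and Gjb5 overlapped. This part of the order is thus not beyond the spread between samples. In normal week 5 tissue, Gja1, Gjc1 and Gjb2 lay close together at means of 10.4, 9.92 and 9.24 FPKM, and their ranges overlapped. In PBOO tissue of week 5, the order was Gjb6, Gjb2, Gja1, Gja4, Gjb5, Gjc1 and Gja5, with overlapping ranges for Gjc1 and Gja5 alone.

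**Figure D1:**
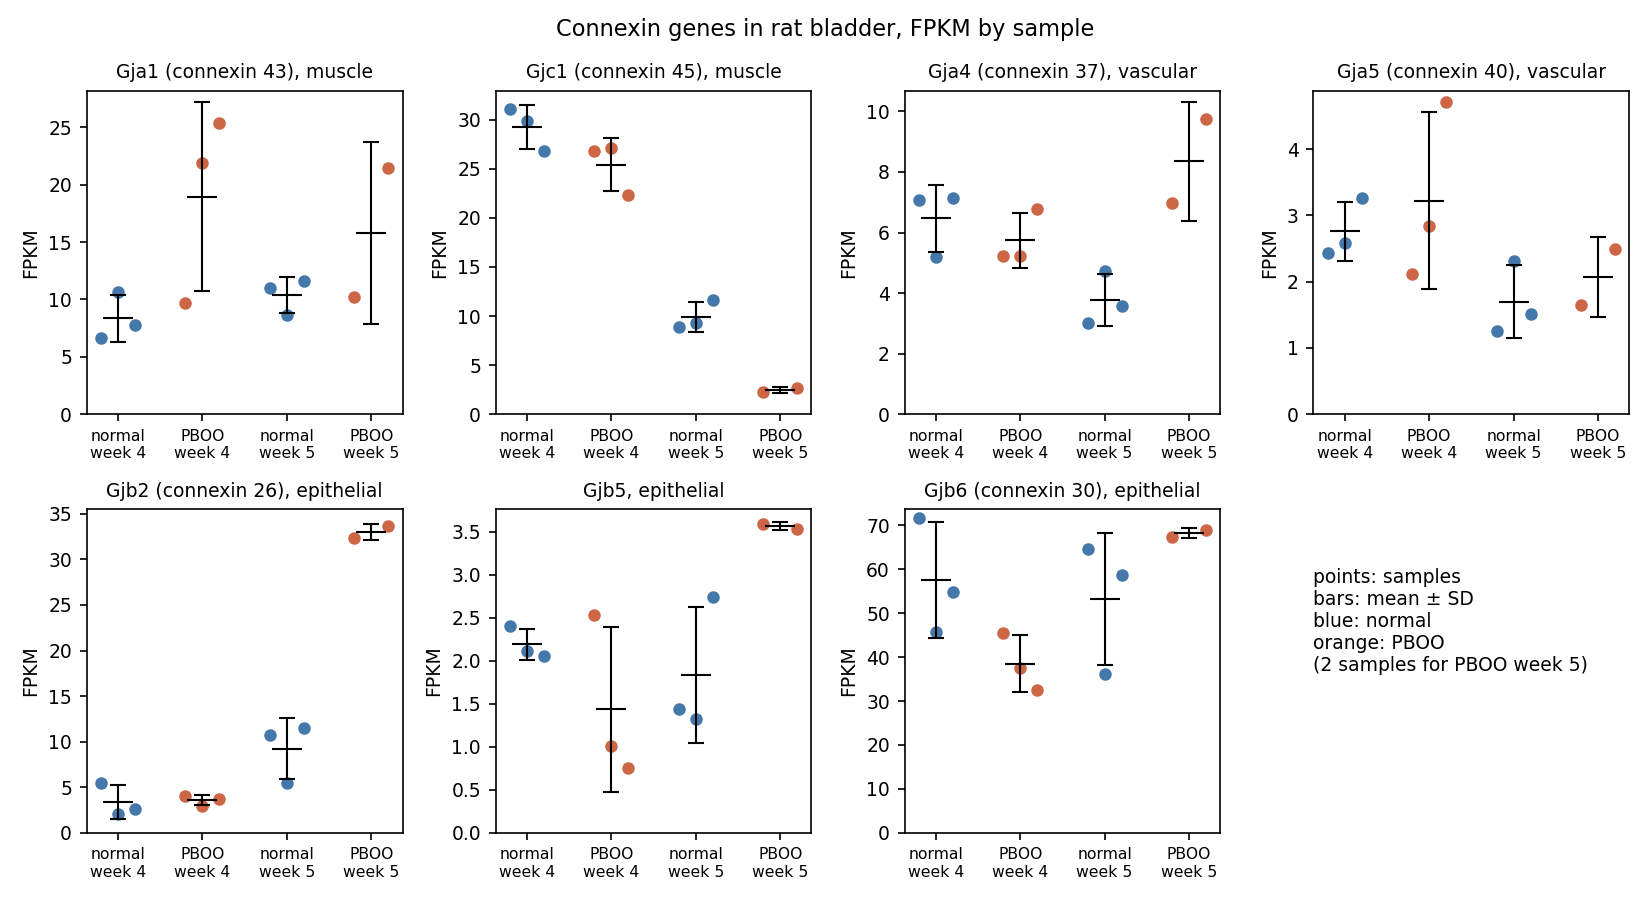
FPKM (vertical axes, each starting at 0) of the 7 connexin genes in normal (blue) and PBOO (orange) samples of week 4 and week 5, with each sample as a point and the mean ± SD as bars. Gjc1 is lowest in the 2 PBOO samples of week 5 (2.25 and 2.66 FPKM), and Gjb2 is highest in them (32.4 and 33.7 FPKM).

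At week 4, the first question was whether the connexins of the hypertrophic bladder differ from those of normal bladder. None of the 7 members was called in limma at an adjusted p under 0.05 with a 2-fold change, a rule passed by 0.371% of all 11320 genes tested. At an unadjusted p under 0.05, 1 member was higher and 1 was lower, where 5.76% of all genes were higher and 26.2% lower. The median log2 fold change of the members was -0.17 and that of all genes was -0.25. After median-ratio scaling of the samples, these medians were 0.08 and -0.01, and 1 member was higher and 0 were lower at an unadjusted p under 0.05, against 11.7% and 9.01% of all genes.

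Gja1, which encodes connexin 43, was the member with the larger values in PBOO. It measured 6.61, 10.6 and 7.78 FPKM in normal tissue and 9.73, 21.9 and 25.3 FPKM in PBOO tissue of week 4. PBOO replicate 1 thus lay within the normal range, while the other two lay above it. On the log2 scale the fold change was 1.09 (standard error 0.37, 95% interval 0.21 to 1.97, limma unadjusted p = 0.0217, adjusted p = 0.110), and 1.34 after median-ratio scaling. It was not called with all samples. Without PBOO replicate 1 it was 1.51, with a limma adjusted p of 0.0169, and leaving out any other sample gave adjusted p-values between 0.190 and 0.264. Without normal replicate 1 it was 0.94 (limma adjusted p = 0.212).

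The summed markers of smooth muscle, like Gja1, had a higher mean in PBOO than in normal samples at week 4. The summed FPKM of 12 smooth muscle marker genes, among them Myh11, Cnn1 and Des, ranged from 29080 to 30989 in normal and from 56046 to 89672 in PBOO samples. Of the 12, 8 were higher at an unadjusted p under 0.05. Smtn, Lmod1, Mylk and Myocd were not, with log2 fold changes of 0.02, 0.21, 0.20 and -0.24. The sum is led by abundant markers such as Actg2, with a log2 fold change of 2.27. The PBOO samples had the same order for this sum as for Gja1, with replicate 1 lowest and replicate 3 highest. The summed leukocyte markers had that order too, at 315, 442 and 519 FPKM. The normal samples did not share it, since replicate 1 had the highest muscle sum and the lowest Gja1. Relative to 1000 FPKM of these markers, Gja1 had 0.281 ± 0.0762 FPKM (SD, n = 3) in the 3 normal libraries and 0.259 ± 0.0766 FPKM (SD, n = 3) in those from PBOO rats, with overlapping ranges. This ratio depends on the markers that lead the sum, and ratios to single markers were not computed. In such bulk samples, a change in the number of cells of a type and a change in RNA per cell cannot be told apart.

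Gjc1, the other muscle connexin, did not share this pattern. Its values were 31.1, 29.9 and 26.8 FPKM in normal and 26.8, 27.1 and 22.3 FPKM in PBOO samples of week 4. The groups overlapped narrowly, and the fold change on the log2 scale was -0.21 (standard error 0.12, 95% interval -0.50 to 0.09, limma adjusted p = 0.269), which was 0.04 after median-ratio scaling. Relative to 1000 FPKM of smooth muscle markers, Gjc1 measured 0.982 ± 0.0535 FPKM (SD, n = 3) in the 3 normal libraries and 0.375 ± 0.116 FPKM (SD, n = 3) in those from PBOO rats, without overlap. As for Gja1, this ratio depends on the abundant markers that lead the sum. The ratio of Gja1 to Gjc1 was 0.212, 0.356 and 0.290 in normal and 0.364, 0.805 and 1.14 in PBOO tissue. All 3 PBOO ratios were above the normal ones, replicate 1 only just.

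The vascular connexins Gja4 and Gja5 overlapped between the groups at week 4. Gja4, connexin 37, had 7.07, 5.20 and 7.15 FPKM in normal and 5.22, 5.22 and 6.78 FPKM in PBOO samples, with a fold change on the log2 scale of -0.17 (95% interval -0.63 to 0.30, limma adjusted p = 0.558) that was 0.08 after median-ratio scaling. Gja5, connexin 40, had 2.43, 2.59 and 3.26 FPKM in normal and 2.12, 2.84 and 4.70 FPKM in PBOO samples, with a fold change on the log2 scale of 0.15 (95% interval -0.59 to 0.90, limma adjusted p = 0.740). Differences within these intervals were not detectable with these samples. Endothelial markers summed to 285 to 327 FPKM over 14 genes in normal and 311 to 324 FPKM in PBOO samples, with single genes in both directions. At an unadjusted p under 0.05, 2 of the 14 were higher (Esam and Eng, log2 fold changes 0.64 and 0.51) and 4 were lower (Kdr, Emcn, Cldn5 and Egfl7), and none was called in limma.

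Among the epithelial connexins at week 4, Gjb6 was lower and Gjb2 and Gjb5 overlapped. Gjb6, connexin 30, measured 71.8, 45.7 and 54.9 FPKM in normal and 45.5, 37.4 and 32.6 FPKM in PBOO samples. Every PBOO value was below every normal value, as in 34.9% of all genes tested, although the nearest values differed by less than 1 FPKM. Its fold change on the log2 scale was -0.57 (standard error 0.20, limma unadjusted p = 0.0234, adjusted p = 0.113), and -0.31 after median-ratio scaling, with an unadjusted p of 0.120. Without normal replicate 1 it was -0.39 (limma adjusted p = 0.213). Gjb5, connexin 31.1, had 2.40, 2.11 and 2.06 FPKM in normal and 2.53, 1.009 and 0.759 FPKM in PBOO samples, with a fold change on the log2 scale of -0.75 (limma adjusted p = 0.252). PBOO replicate 1 had the highest value of all 6 samples and the other two the lowest, and without that sample the log2 fold change was -1.23 (limma adjusted p = 0.0354). Gjb2, connexin 26, had 5.50, 2.10 and 2.59 FPKM in normal and 4.09, 2.97 and 3.71 FPKM in PBOO samples, with a fold change on the log2 scale of 0.19 (limma adjusted p = 0.723). Normal replicate 1 had the highest value of the 6 samples, and without it the log2 fold change was 0.59 (limma adjusted p = 0.2004).

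Urothelial markers were lower beside Gjb6. Over 17 genes, such as the uroplakins and Krt5, they summed to between 7919 and 10102 FPKM in normal and between 4877 and 6132 FPKM in PBOO samples of week 4, and 13 of the 15 tested were lower at an unadjusted p under 0.05 (7 after median-ratio scaling), with none called. Upk3b and Krt7 were listed at 0 in all week 4 samples. Relative to 1000 FPKM of these markers, Gjb6 had 6.29 ± 0.712 FPKM (SD, n = 3) in the 3 normal libraries and 7.01 ± 0.378 FPKM (SD, n = 3) in those from PBOO rats, with overlapping ranges. The part of the markers in the lower value of Gjb6 was not tested.

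**Figure D2:**
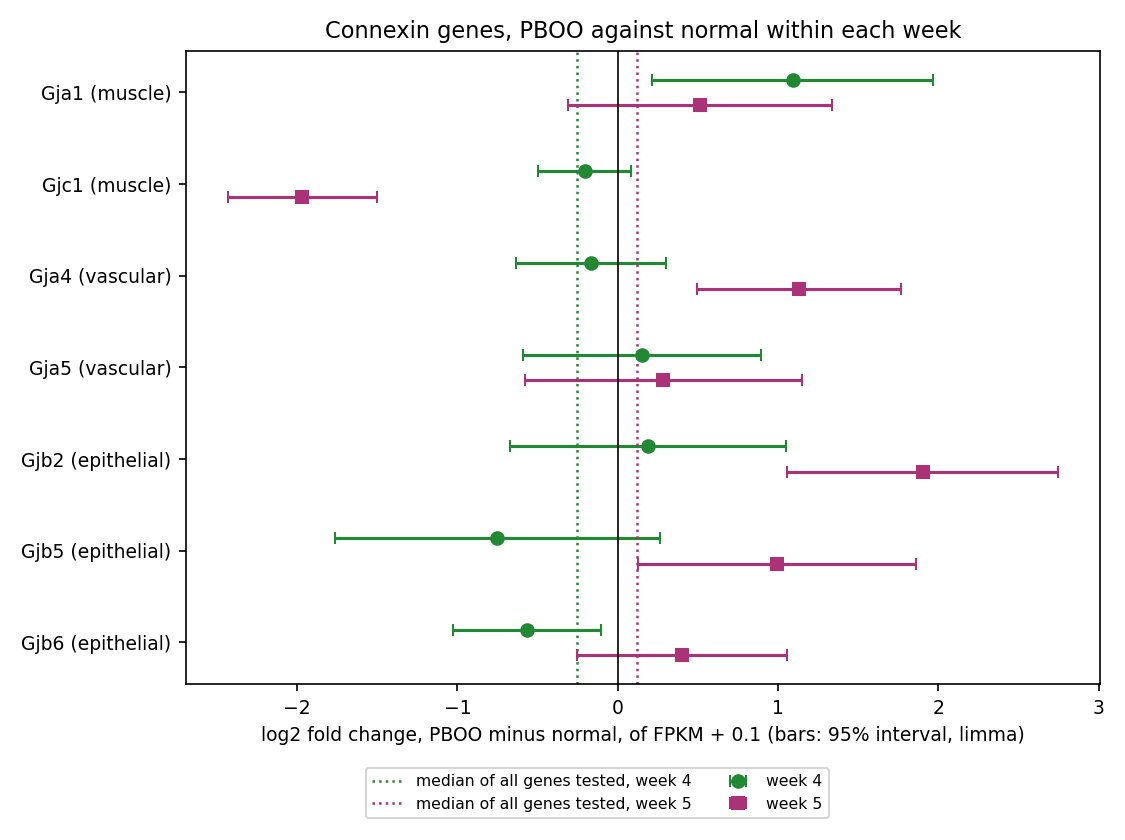
Log2 fold change (horizontal axis, PBOO minus normal, of FPKM + 0.1) of each connexin gene at week 4 (green circles) and week 5 (purple squares), with 95% intervals from limma. Dotted lines mark the median of all genes tested, -0.25 at week 4 and 0.12 at week 5. The largest decrease is that of Gjc1 at week 5 (-1.97), and the largest increase is that of Gjb2 at week 5 (1.90).

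At week 5, the comparison of the 2 PBOO and 3 normal samples was made between libraries that also differed widely in their muscle markers. Of the 7 members, Gja4 and Gjb2 increased and Gjc1 decreased at the adjusted threshold, where 7.91% of all 13685 genes tested increased and 11.4% decreased. The PBOO and normal groups did not overlap in 4 members that were higher in PBOO and 1 that was lower, as in 35.3% and 25.0% of all genes. Over the members the median log2 fold change was 0.52, against 0.12 over all genes, and 0.41 and 0.02 after median-ratio scaling. Smooth muscle markers summed to between 27278 and 31847 FPKM in normal tissue and to 2191 and 1372 FPKM in PBOO tissue, and all 12 decreased, Myh11 with a log2 fold change of -4.69 and Des of -4.01 (limma adjusted p = 0.000289 and 0.000325). Of the 12 fibroblast and interstitial markers, 8 decreased and 1 increased. Leukocyte markers summed to between 39.6 and 92.0 FPKM in normal samples and to 277 and 1156 FPKM in PBOO samples, with 6 of 12 tested increased, and of 8 nerve and glia markers tested, 6 decreased. The defining markers of bladder muscle were thus far below the normal range in the PBOO libraries of week 5. Whether these tissues were sampled in another way is not given in the sources used here, so that obstruction and the make-up of the sampled tissue cannot be told apart in any week 5 value.

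Gjc1, connexin 45, decreased about 4-fold beside these muscle markers. It had 8.85, 9.25 and 11.7 FPKM in normal and 2.25 and 2.66 FPKM in PBOO samples of week 5, with a wide gap between the groups. On the log2 scale the fold change was -1.97 (standard error 0.19, 95% interval -2.43 to -1.50, limma adjusted p = 0.00170), and leaving out each sample in turn gave -2.08 to -1.85, always called. The decrease of the marker list, with a median log2 fold change of -4.34, was larger than that of Gjc1. Relative to 1000 FPKM of smooth muscle markers, Gjc1 measured 0.334 ± 0.0353 FPKM (SD, n = 3) in normal samples and 1.03 and 1.94 FPKM in the PBOO samples. The part of the lost markers in the decrease of Gjc1 was not tested.

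Gja1 was not called at week 5, although it is placed with the muscle connexins. It had 10.99, 8.66 and 11.6 FPKM in normal and 10.2 and 21.4 FPKM in PBOO samples. PBOO replicate 1 lay within the normal range, and replicate 2 lay above it. On the log2 scale the fold change was 0.52 (95% interval -0.31 to 1.34, limma adjusted p = 0.285). It was 1.05 without PBOO replicate 1 (limma adjusted p = 0.0225) and -0.01 without PBOO replicate 2, with the lone sample of the group assumed to vary like the others. The ratio of Gja1 to Gjc1 was 1.24, 0.936 and 0.993 in normal samples and 4.55 and 8.05 in PBOO samples.

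Of the vascular connexins, Gja4 was called at week 5 and Gja5 was not, and the difference between these 2 genes was not tested. Gja4 had 3.02, 4.72 and 3.57 FPKM in normal and 6.96 and 9.74 FPKM in PBOO samples, without overlap. Its fold change on the log2 scale was 1.13 (standard error 0.26, 95% interval 0.49 to 1.77, limma adjusted p = 0.0245), and 1.03 after median-ratio scaling (limma adjusted p = 0.0273). The call was lost without normal replicate 1, normal replicate 3 or PBOO replicate 2, with log2 fold changes of 0.99, 1.10 and 0.89 and limma adjusted p-values of 0.0867, 0.0850 and 0.0815. Gja5 had 1.26, 2.32 and 1.51 FPKM in normal and 1.64 and 2.49 FPKM in PBOO samples, which overlapped, with a log2 fold change of 0.29 (95% interval -0.58 to 1.15, limma adjusted p = 0.565). The ratio of Gja4 to Gja5 was 2.39, 2.04 and 2.37 in normal samples and 4.24 and 3.91 in PBOO samples.

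Endothelial markers overlapped in sum between PBOO and normal samples, but single markers went in both directions. Over 14 genes they summed to between 126 and 179 FPKM in normal samples and to 155 and 228 FPKM in PBOO samples of week 5, which overlapped. Of these genes, Eng alone was called, with an increase of 1.14 on the log2 scale (limma adjusted p = 0.0251), close to that of Gja4. None was called as decreased, and the median log2 fold change was 0.45. Vwf had a log2 fold change of 2.22 without overlap (limma adjusted p = 0.0506), and Esam had -0.95, short of a 2-fold change (adjusted p = 0.0166). Pecam1 and Cdh5, which encode junction proteins of endothelial cells, had log2 fold changes of 0.82 and 0.40 (limma adjusted p = 0.152 and 0.420). Relative to 1000 FPKM of endothelial markers, Gja4 measured 25.2 ± 1.18 FPKM (SD, n = 3) in normal samples and 44.8 and 42.7 FPKM in the PBOO samples. On the same scale, Gja5 measured 11.2 ± 1.51 FPKM (SD, n = 3) in normal samples and 10.6 and 10.9 FPKM in the PBOO samples. These ratios depend on the markers that lead the sum. Esam, the most abundant of them in normal samples, had 45.4, 42.5 and 51.3 FPKM there and 19.9 and 28.7 FPKM in PBOO samples. Ratios without Esam were not computed, so the contrast between Gja4 and Gja5 on this scale may depend on it.

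The largest increase among the 7 members was that of Gjb2 at week 5. Its values were 10.8, 5.41 and 11.5 FPKM in normal and 32.4 and 33.7 FPKM in PBOO samples, so that both PBOO samples were far above the normal range. On the log2 scale the fold change was 1.90 (standard error 0.34, 95% interval 1.05 to 2.75, limma adjusted p = 0.0119), and between 1.56 and 2.10 when each sample was left out in turn, always called. Gjb5 had 1.44, 1.32 and 2.75 FPKM in normal and 3.60 and 3.53 FPKM in PBOO samples, also without overlap. Its log2 fold change of 0.99 (standard error 0.35, limma unadjusted p = 0.0316, adjusted p = 0.0840) missed the threshold, but without normal replicate 3 it was 1.31 with a limma adjusted p of 0.0360. Gjb6 had 64.7, 36.2 and 58.8 FPKM in normal and 67.5 and 69.1 FPKM in PBOO samples, with a fold change on the log2 scale of 0.40 (95% interval -0.25 to 1.06, limma adjusted p = 0.292). Both PBOO values were above the highest normal value, by less than 5 FPKM. The ratio of Gjb2 to Gjb6 was 0.167, 0.150 and 0.196 in normal samples and 0.480 and 0.487 in PBOO samples.

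These values stood beside a changed epithelial profile. The 17 urothelial markers summed to between 9295 and 12185 FPKM in normal samples and to 12367 and 12409 FPKM in PBOO samples of week 5, but the single genes went in different directions. Krt5, a keratin of basal cells, increased with a log2 fold change of 3.52 (limma adjusted p = 0.00893), and Krt19 increased by 1.75 (limma adjusted p = 0.0172). Krt20 and Upk2, which mark superficial urothelial cells, decreased with log2 fold changes of -6.47 and -2.39 (limma adjusted p = 0.000760 and 0.000532), as did Krt18 and Upk3b. Other markers of the same layers were not called, with log2 fold changes of 0.03 for the superficial marker Upk3a and -0.05 for the basal marker Tp63 (limma adjusted p = 0.901 and 0.903). Of 7 squamous markers tested, 3 increased, namely Krt16, Krt17 and Ivl, with log2 fold changes of 4.13, 3.73 and 2.34 (limma adjusted p = 0.0443, 0.0264 and 0.00214), and none decreased. Relative to 1000 FPKM of urothelial markers, Gjb2 measured 0.816 ± 0.203 FPKM (SD, n = 3) in normal samples and 2.62 and 2.71 FPKM in the PBOO samples. This ratio depends on the markers that lead the sum, among which Krt19 increased and Upk2 and Krt18 decreased. The part of the changed epithelial markers in the increase of Gjb2 was not tested.

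**Figure D3:**
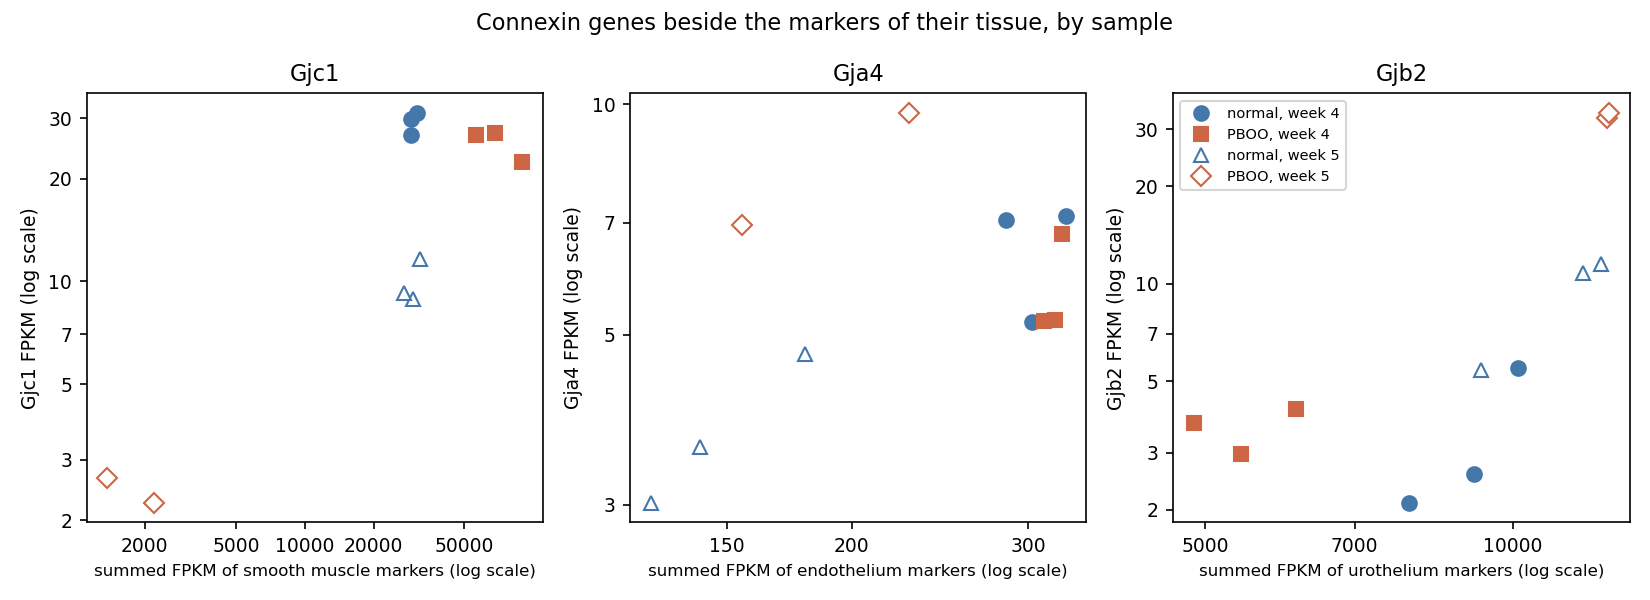
FPKM of Gjc1, Gja4 and Gjb2 (vertical axes) against the summed FPKM of smooth muscle, endothelial and urothelial markers (horizontal axes) in each sample, all on log scales, with filled symbols for week 4 and open symbols for week 5. The 2 PBOO samples of week 5 lie far to the left for muscle markers (1372 and 2191 FPKM), and above the week 5 normal samples for Gja4 and Gjb2.

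Summed by tissue group, muscle connexins took a smaller share of the members in PBOO than in normal samples at week 5. Epithelial connexins made up 76.1%, 63.2% and 72.1% of the summed FPKM of the 7 genes in normal samples and 83.1% and 74.5% in PBOO samples of week 5, which overlapped. Muscle connexins made up 19.6%, 26.4% and 22.9% in normal samples and 10.01% and 16.9% in PBOO samples, without overlap. The sums behind these shares overlapped for muscle connexins, with 19.8, 17.9 and 23.2 FPKM in normal and 12.5 and 24.1 FPKM in PBOO samples, while those of epithelial connexins did not, with 76.9, 42.9 and 73.0 FPKM in normal and 103 and 106 FPKM in PBOO samples. At week 4 the shares of epithelial connexins were 62.8%, 50.8% and 57.0% in normal and 54.3%, 42.1% and 38.5% in PBOO samples, and those of muscle connexins 29.7%, 41.3% and 33.1% in normal and 38.0%, 49.8% and 49.5% in PBOO samples. Both overlapped through PBOO replicate 1. Vascular connexins stayed between 4.23% and 11.9% in all 11 samples. These shares were not tested, because the members were chosen with earlier results known.

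**Figure D4:**
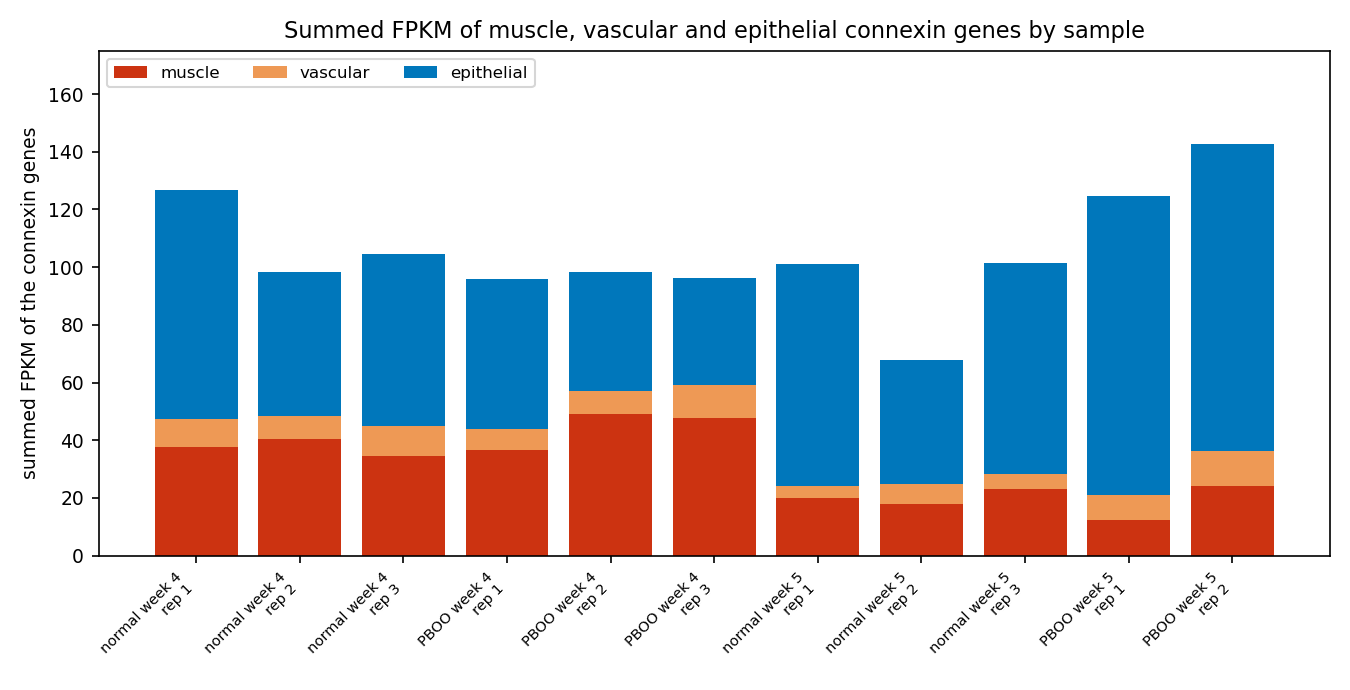
Summed FPKM (vertical axis, from 0) of the muscle, vascular and epithelial connexin genes, stacked, in each of the 11 samples. The sum of epithelial connexins is 103 and 106 FPKM in the 2 PBOO samples of week 5, and 42.9 to 79.7 FPKM in the normal samples of both weeks.

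Whether the effect of PBOO differed between the weeks was tested in 1 limma fit of all 11 samples and 11296 genes. The difference, week 5 effect minus week 4 effect on the log2 scale, was -1.76 for Gjc1 (standard error 0.22, limma adjusted p = 0.000258), 1.298 for Gja4 (adjusted p = 0.0119), 1.71 for Gjb2 (adjusted p = 0.0297), 1.74 for Gjb5 (adjusted p = 0.0425) and 0.97 for Gjb6 (adjusted p = 0.0478). So 4 members passed with a higher effect at week 5 and 1 with a lower effect, where 26.5% and 13.5% of all genes did. For Gja1 the difference was -0.57 (95% interval -1.82 to 0.67, limma adjusted p = 0.433), and for Gja5 it was 0.13 (95% interval -0.96 to 1.22, adjusted p = 0.848). The median difference of all genes was 0.35, and it was near 0 after median-ratio scaling within each week. With that scaling Gjc1 alone passed, at -2.11 (limma adjusted p = 4.77e-05), where 18.5% of all genes passed with a lower and 13.8% with a higher effect at week 5, while Gja4 was 0.95 (adjusted p = 0.0613), Gjb2 was 1.37 (adjusted p = 0.0891), Gjb5 was 1.41 (adjusted p = 0.0844) and Gjb6 was 0.61 (adjusted p = 0.199).

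By the RefSeq gene order of the rat (GRCr8), Gjb2 and Gjb6 are neighbours on chromosome 15, with no other protein-coding gene between them. Of these neighbours, Gjb2 increased at week 5 and Gjb6 was not called. Gja4 and Gjb5 both lie on chromosome 5, Gjc1 on chromosome 10 and Gja1 on chromosome 20.

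Of 19 connexin and pannexin genes in the table, 13 were tested at week 5, of which 4 increased and 1 decreased (7.91% and 11.4% of all genes), and 11 were tested at week 4, of which none was called in limma (1 higher and 2 lower at an unadjusted p under 0.05, against 5.76% and 26.2% of all genes). Every week 5 sample has Gja3 and Gjd4 at 0, and every week 4 sample has Gjc3 and Gjd3 at 0.

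Proteins that bind or phosphorylate connexins were also examined, as a list of 37 genes. At week 4 none was called in limma, with 4 higher and 8 lower at an unadjusted p under 0.05, and 10 higher and 0 lower after median-ratio scaling. Over all genes the shares were 5.76% higher and 26.2% lower, and 11.7% and 9.01% with that scaling. Dbn1 (drebrin, an actin-binding partner of connexin 43) and Cav1 (caveolin 1) had log2 fold changes of 0.98 and 0.76 (limma adjusted p = 0.0703 and 0.0538). The scaffold gene Tjp3 (zonula occludens 3) and Cdh1 (E-cadherin) had log2 fold changes of -0.74 and -0.62 (limma adjusted p = 0.136 and 0.150), both epithelial. At week 5, 2 genes of the list increased and 5 decreased, beside 7.91% and 11.4% of all genes. Tjp3 increased by 2.46 on the log2 scale (standard error 0.18, limma adjusted p = 0.000689). Cdh2 (N-cadherin), Cav1 and Prkcb decreased, with log2 fold changes of -4.65, -3.34 and -3.34 (limma adjusted p = 0.000288, 0.000612 and 0.000589). Over the 37 genes the median log2 fold change was -0.06 at week 4 and 0.00 at week 5.

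Genes with the most similar profile were sought for each member, by Pearson's r of log2(FPKM + 0.1) over the 11 samples with the mean of each week subtracted, among the 9969 genes whose mean reached 1 FPKM in each week. The samples share their libraries and groups, so that r is given as a description. Gjc1 was closest to Tbx20 (r = 0.992), Rtn4r (r = 0.990) and Osbp2 (r = 0.989). Gja4 was closest to Tmem208 (r = 0.973), Sox18 (r = 0.969) and Rab4b (r = 0.960). Gjb5 was closest to Chst5 (r = 0.978), Gjb6 to Rae1 (r = 0.968) and Gjb2 to Myo19 (r = 0.946). For Gja1 and Gja5 the highest values were lower, with Mpc1 (r = 0.907) and Brd7 (r = 0.911).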

How the data were processed

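The authors prepared TruSeq libraries, sequenced them in pairs on a HiSeq4000, trimmed reads with SeqPrep and Sickle, mapped them with HISAT2 2.0.4, assembled transcripts with StringTie 1.3.1, took expression values from featureCounts and tested counts with DESeq2. The deposited table holds FPKM per gene symbol and sample, computed by the authors, without counts. The submitters' processing notes name mm10, a mouse build, for these rat samples. The annotation and strand of counting are not given in the sources used here. Low values were checked for steps of whole reads. In pairs of replicates, 10.4% to 12.5% of genes under 0.1 FPKM had ratios within 0.5% of ratios of whole numbers up to 5, against 7.32% to 11.2% after shuffling. A PBOO week 4 pair was below its own shuffle (10.7% against 11.2%), and all other pairs were above theirs. Normal week 5 pairs had 12.2%, 11.0% and 11.6%, against 7.48%, 7.94% and 7.32%. This excess was small and was not tested, so depth was taken as unknown and no counting error is given.

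Columns were assigned by the labels' descriptions. Each week was fitted with limma 3.58.1 in R 4.3.3 (lmFit, eBayes with trend) on log2(FPKM + 0.1), a scale that understates changes of low genes, for genes whose mean reached 0.5 FPKM, and p was adjusted over all genes by Benjamini-Hochberg. The steps were tested on simulated data. Intervals are 95% intervals of limma. Figures were drawn with matplotlib 3.10.9. The members, gene lists and tests were chosen with earlier results of these data known. Named genes are the members, other connexins listed at 0, and from the partner list up to 3 per direction and week with the largest change at an unadjusted p under 0.05. Some genes that this rule names are not reported here. Single genes of the marker lists were named after their values were seen. The 3 genes most like each member were computed, and for some members 1 is given. Alternatives were other pseudocounts, filters, scalings, a fit without trend, a joint fit, a replicate block and leaving out each sample. Nothing in the labels pairs same-numbered samples. The proteomic, serum, staining and single-cell data of the study were not analysed here.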

Additional observations from a re-analysis of the deposited data

Results flagged for a closer look

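The log2 fold change of PBOO against normal differed between the weeks, by the test of the difference itself in limma, in 5 of the 7 connexin genes. Over all genes it did so in 26.5% with a higher and in 13.5% with a lower value at week 5. Genes listed at 0 in all samples of a week numbered 4871 at week 4 and 403 at week 5. The time of obstruction, the make-up of the sampled tissue and any difference in processing between the weeks cannot be told apart in the difference of the log2 fold changes. The difference of log2 fold changes (week 5 minus week 4) was -1.76 for Gjc1, 1.298 for Gja4, 1.71 for Gjb2, 1.74 for Gjb5 and 0.97 for Gjb6. With median-ratio scaling, that of Gjc1 kept an adjusted p under 0.05, at -2.11, while Gja4, Gjb2, Gjb5 and Gjb6 had limma adjusted p-values of 0.0613, 0.0891, 0.0844 and 0.199. No rule for single outlying samples was applied to groups of 3 or fewer. Normal week 4 replicate 1 was set apart by its marker sums alone, and each sample was left out in turn.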

How the results depend on the processing

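The sequencing depth is unknown and groups hold 2 or 3 samples, so that small changes could not be detected. The week 4 call count of 42 genes was unstable, with 0 under median-ratio scaling, without the filter or without trend, 114 with a filter at 2 FPKM, 80 after quantile normalization, 233 in 1 fit over all samples, and 0 to 719 when each sample was left out. At an unadjusted p with a 2-fold change it was 555, but 336 with a pseudocount of 1 and 352 to 1024 with a sample left out, and the highest count came without PBOO replicate 1. The number of members called at week 4 was 0 under every setting that kept all samples and 0 to 2 with a sample left out. At week 5, 2637 genes were called, and 1679 to 3503 with a sample left out, the lowest without normal replicate 1. For the difference between weeks, 5 members passed, but 3 without the filter, 1 after median-ratio scaling, 2 after quantile normalization, and 2 to 5 with a sample left out. The cause was not tested.

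The week 4 log2 fold change changed sign after median-ratio scaling in Gjc1 (0.044) and Gja4 (0.081), and after quantile normalization in Gja4 (0.072). The difference between weeks did so in Gja5 (-0.21 and -0.011). With single samples left out, the sign also changed in Gja5 (-0.15 to 0.41) and Gjb2 (-0.084 to 0.59) at week 4, in Gja1 (-0.015 to 1.05) and Gja5 (-0.0024 to 0.57) at week 5, and in the difference of Gja5 (-0.15 to 0.44). None of these was called with all samples. Gjb2 and Gjc1 at week 5 were called under all alternatives. Gja4 fell short of a 2-fold change with a pseudocount of 1, at 0.97. Over all alternatives, limma adjusted p-values ranged from 0.0169 to 0.264 for Gja1, 0.0592 to 0.352 for Gjb6 and 0.0354 to 0.535 for Gjb5 at week 4, and from 0.0225 to 0.964 for Gja1, 0.00544 to 0.0867 for Gja4 and 0.0360 to 0.230 for Gjb5 at week 5.

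The replicate number as a block gave 55 called genes at week 4 and 2319 at week 5, and 3664 for the difference between weeks. With the block, Gjb5 was also called at week 5 (log2 fold change 1.31, limma adjusted p = 0.0443), and no other call of a member changed. The value of Gjb5 is not separate from that without normal replicate 3. No PBOO sample of week 5 has that number, so the block takes up this normal sample and gives the same log2 fold change. Deviations of same-numbered samples correlated at 0.154, -0.024 and 0.232 at week 4, and those of differently numbered samples at -0.210 to 0.094. At week 5 the same-numbered values were -0.001 and 0.124, and the others ran from -0.161 to 0.161. Whether same-numbered samples are related was not tested.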
